A study of Schizosaccharomyces pombe with 15 samples.

Results

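U6 small nuclear RNA of fission yeast, Schizosaccharomyces pombe, was compared at its 3′ end between cells with and without the gene rrp6. The comparison rests on 2 of the 15 libraries of the series, chosen by their titles: wt (strain CAF13) and rrp6Δ (strain CAF374), in which rrp6 is deleted. Both strains were grown in YES medium at 30 °C to logarithmic phase, and neither carries a tagged U6 gene. Their total RNA was incubated with polynucleotide kinase (PNK), an enzyme that takes off 3′ phosphates and so lets an adapter be ligated, and the U6 products were then amplified and sequenced. Each strain gave 1 library, so no value here has a replicate, no test was possible and no p-value is given. Whether the labels name the right strains could not be checked, because a U6 amplicon holds no reads of rrp6.

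U6 is part of the catalytic core of the spliceosome. RNA polymerase III makes it and stops within a run of Ts, which leaves a run of Us at the 3′ end. In fission yeast the Mpn1 exonuclease, related to human USB1, trims this U run. Rrp6 is a 3′-to-5′ exonuclease of the nuclear exosome, and the exosome is known for degrading or trimming nuclear RNAs that carry short A tails added by the TRAMP complex. In the ASM294v3 assembly rrp6 is a plus-strand gene at chr I:610848-613338.

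The sequence below shows which Us are encoded, since an A after fewer Us than the genome holds cannot be copied from this locus. It is the end of the U6 gene, snu6, and what follows it, read 5′ to 3′ on the minus strand of chr I:2562246-2562314 (RefSeq, ASM294v3). The capitals mark the encoded run of 9 Ts at 2562266 to 2562274, just after the annotated gene (2562276 to 2562419).
End of snu6: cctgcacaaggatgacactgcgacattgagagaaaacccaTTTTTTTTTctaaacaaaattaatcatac
The deposited files list an end as the letters after the constant part of U6, with T for U. The plain 5-U end and the A-tailed ends on which the results turn are shown here, with the A tail in capitals.
5 Us: ttttt
5 Us and 1 A: tttttA
5 Us and 2 As: tttttAA
6 Us and 1 A: ttttttA
4 Us and 1 A: ttttA

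The wt library held 859009 reads with an end sequence and 3324 distinct ends, and the rrp6Δ library 705616 reads and 3805 ends. A further 28543 reads in wt (3.22% of all reads) and 15879 in rrp6Δ (2.20%) were listed with no sequence and were left out of the shares. Intervals are exact (Clopper-Pearson) 95% intervals of a share. They cover counting error only, since the reads are PCR products without molecular identifiers. An end not seen could still hold up to 0.000349% of reads in wt and 0.000425% in rrp6Δ (3 reads). A difference between the libraries is called past the size limit when it reaches 5 percentage points and 1.5 times for a share, or 0.5 nt for a mean length.

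Loss of rrp6 went with more A-tailed ends, which are Us followed by As alone, and a lower share of plain U ends at 1 to 9 Us. At 1 to 7 Us the intervals of the plain shares were apart, and at 8 and 9 Us they overlapped. All are shares of the same total, so a higher share of 1 class lowers the rest. Plain U ends held 92.5% of reads in wt (92.4 to 92.5) and 57.1% in rrp6Δ (56.9 to 57.2), a difference of -35.4 points. A-tailed ends held 4.55% in wt (4.51 to 4.60) and 39.1% in rrp6Δ (39.0 to 39.2), which is 34.6 points more. The remaining ends differed far less: mixed tails, long tails and ends without a leading U together took up the small rest in both libraries.

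Of the 9 plain ends, the 5-U end alone was lower by more than 1.5 times. It held 55.0% of reads in wt and 28.1% in rrp6Δ, or 0.510 times as much. Shorter plain ends were lower too, but by less: the 1-U end held 7.14% in wt and 4.95% in rrp6Δ, the 2-U end 5.47% and 3.77%, and the 3-U end 3.61% and 2.73%. The 4-U end held 7.35% in wt and 5.53% in rrp6Δ. On the longer side, the 6-U end held 11.9% and 10.5%, a ratio of 0.880, and the 7-U end 1.77% and 1.31%. The 8-U end held 0.192% in wt and 0.175% in rrp6Δ, and the 9-U end 147 reads and 98 reads. The longest plain run was 13 Us in both libraries. The mean length of plain ends was 4.53 nt in wt and 4.50 nt in rrp6Δ, a difference under the size limit, with ends lower on both sides of 5 Us.

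**Figure D1:**
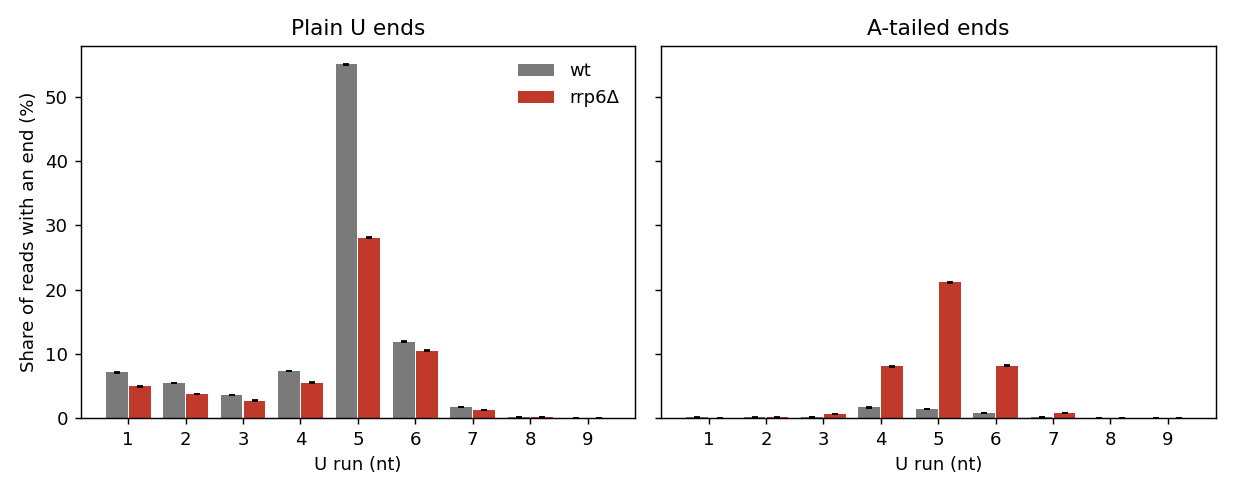
Plain U ends (left) and A-tailed ends (right) by the length of the U run in nt, as percent of reads with an end, in wt (grey) and rrp6Δ (red), 1 library each; error bars are exact 95% intervals. The plain 5-U end holds 55.0% in wt and 28.1% in rrp6Δ, and the A-tailed ends of rrp6Δ lie mainly at 4, 5 and 6 Us.

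The As sat mainly on U runs of 4 to 6 nt. Of A-tailed reads in rrp6Δ, 95.5% had such a run, and 54.0% had 5 Us. In wt these shares were 86.1% and 30.7%, and the A-tailed end with 4 Us was the commonest there. Plain ends lay mainly on the same runs. Of plain reads, 80.3% in wt and 77.3% in rrp6Δ had 4 to 6 Us, and 59.5% and 49.2% had 5 Us. The mean U run under an A tail was 4.60 nt in wt and 4.99 nt in rrp6Δ. Counting plain and A-tailed reads together, runs of 5 Us held 0.872 times their wt share in rrp6Δ, runs of 4 Us 1.51 times and runs of 6 Us 1.46 times. Runs of 1 to 3 Us, plain or A-tailed, held 16.7% of reads in wt and 12.4% in rrp6Δ.

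At a given U run, the share of plain and A-tailed reads that carried As depended on how many Us were left. With 1 U it was 1.67% in wt (1.57 to 1.77) and 1.94% in rrp6Δ (1.798 to 2.09). With 2 Us it was 2.07% (1.95 to 2.20) and 3.12% (2.92 to 3.33). These shortest runs therefore stayed nearly free of As in both libraries. With 3 Us the share was 6.09% in wt (5.83 to 6.35) and 20.4% in rrp6Δ (19.9 to 20.9). With 4 Us it was 18.7% (18.4 to 18.9) and 59.4% (59.1 to 59.7), the highest share at any run in either library. With 5 Us it was 2.48% (2.44 to 2.52) and 43.0% (42.8 to 43.1), the largest ratio of the 9 lengths at 17.3 times. In wt the share at 5 Us was thus under those at 4 and at 6 Us, and in rrp6Δ it lay within 1 point of that at 6 Us. With 6 Us it was 6.56% (6.41 to 6.70) and 43.7% (43.4 to 44.0), with 7 Us 7.78% (7.37 to 8.20) and 36.8% (35.97 to 37.5), and with 8 Us 4.79% (3.84 to 5.91) and 25.5% (23.4 to 27.6). With 9 Us, the encoded length, 5 of 152 reads in wt and 9 of 107 in rrp6Δ had As, and the intervals overlapped. In all, 8 of the 9 runs had a higher A-tailed share in rrp6Δ with intervals apart, none had a lower one, and the 6 runs from 3 to 8 Us were also past the size limit.

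Shares near 0 and shares near the middle of the scale are hard to set side by side, so odds were compared as well. The odds of an A tail in rrp6Δ were 29.6 times those in wt at 5 Us (29.1 to 30.2) and 11.1 times at 6 Us (10.8 to 11.4). They were 6.38 times at 4 Us (6.24 to 6.52), 6.89 times at 7 Us (6.45 to 7.36) and 6.78 times at 8 Us (5.30 to 8.68). At 3 Us the odds ratio was 3.96 (3.75 to 4.18), at 2 Us 1.52 (1.39 to 1.67) and at 1 U 1.16 (1.06 to 1.28). At 9 Us the odds ratio was 2.70 (0.879 to 8.30), an interval that holds 1. By this measure the difference was greatest at 5 Us and smaller at the runs on both sides. The intervals at 7 and 8 Us overlapped.

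**Figure D2:**
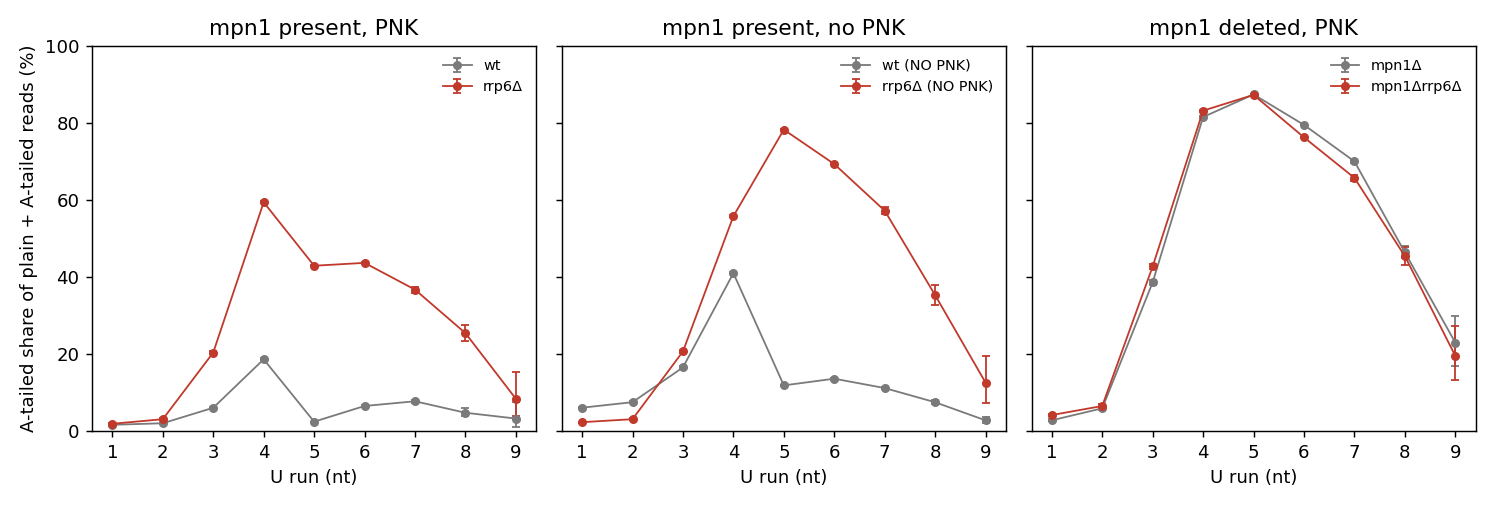
A-tailed reads as percent of plain and A-tailed reads at each U run (nt), for strains with rrp6 (grey) and without it (red) in 3 settings, 1 library per line; error bars are exact 95% intervals. With mpn1 and PNK the lines part from 3 Us on, and with mpn1 deleted they nearly coincide.

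The other 6 PNK-treated libraries of strains that keep mpn1 show how far these shares vary in the series. They are cid14Δ, cid11Δ, cid12Δ, cid16Δ, tU6-wt and tU6-C36A. The strains of tU6-wt and tU6-C36A carry a tagged U6, with the change C36A in the second. Their titles do not say which U6 copy the reads come from. Reads with an N made up 0.0217% to 0.0226% in 3 of the 6 libraries (cid11Δ, cid12Δ, cid16Δ), and 0.00249% to 0.00336% in the tagged strains. The cid14Δ and wt libraries had none, and rrp6Δ had 0.000142%. The part of this difference in the ranges below was not tested, but the highest values at 5 to 8 Us come from cid14Δ and the tagged strains. At 5 Us their A-tailed share ran from 0.436% to 4.44%, at 6 Us from 2.003% to 12.8%, at 7 Us from 0.491% to 29.0% and at 8 Us from 0% to 8.74%. The rrp6Δ library lay above all 6 at each of the runs from 5 to 9 Us. At 9 Us its share rests on 9 of 107 reads, 8.41% (3.92 to 15.4), and this interval overlapped those of all 6. At 4 Us it lay above the 4 cid deletions, whose highest value was 44.1%, and below the tagged strains, whose values of 92.9% and 99.7% rest on files that list only 218 and 51 plain 4-U reads. At 3 Us it lay above 4 of the 6, with 26.3% in cid12Δ and 22.3% in cid11Δ. At 1 and 2 Us it lay within their range, so the shortest runs did not set rrp6Δ apart.

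Single ends were compared where at least 100 reads stood in either library, which left 74 ends. Of these, 35 were higher in rrp6Δ by 1.5 times with intervals apart, or 47.3%, and 6 were lower, or 8.11%. Of the 74, 20 had 100 reads in rrp6Δ alone and so could only enter by being high there. Over the 54 ends with at least 100 reads in wt, a choice made after seeing the data, 15 were higher (27.8%) and 6 lower (11.1%). Of the 17 A-tailed ends with 3 to 8 Us, 12 had 100 reads in wt, and these 12 were higher with ratios from 1.83 to 30.0. None of the 3 A-tailed ends with 1 or 2 Us was called, and all 3 had 100 reads in wt. Of the 9 plain ends, which had 100 reads in wt too, none was higher and 1 was lower. The commonest A-tailed end of rrp6Δ was tttttA, with 1.33% of reads in wt and 19.6% in rrp6Δ, a ratio of 14.7. The end ttttttA stood at 0.801% and 7.63%, a ratio of 9.53, and ttttA at 1.61% and 7.30%, a ratio of 4.55. The highest ratio of all was that of 5 Us and 2 As, at 0.0474% and 1.42%. Ends with 6 Us and 2 As (0.0290% and 0.481%) and with 4 Us and 2 As (0.0579% and 0.710%) had ratios of 16.6 and 12.3. Ends with 7 Us and 1 A (0.145% and 0.725%) and with 3 Us and 1 A (0.188% and 0.615%) had ratios of 5.004 and 3.27. Those with 2 Us and 1 A (0.0919% and 0.0962%) and with 1 U and 1 A (0.0815% and 0.0604%) were not called.

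The tails that set rrp6Δ apart were short. A single A was carried by 4.25% of reads in wt and 36.04% in rrp6Δ, or 8.47 times as many. Tails of 2 As had the highest ratio, with 0.172% in wt and 2.71% in rrp6Δ, or 15.7 times. From there on the ratio became smaller with each A: 4.25 times for 3 As (0.0613% and 0.261%) and 2.15 times for 4 As (0.0367% and 0.0788%). Tails of 5 or more As held 252 reads in wt, or 0.0293% (0.0258 to 0.0332), and 234 in rrp6Δ, or 0.0332% (0.0290 to 0.0377). The intervals overlap, so over all U runs together no difference in these longer tails was detectable at this depth. Of these reads, 175 in wt (69.4%) and 126 in rrp6Δ (53.8%) were on 1 to 3 Us. Those on longer runs were not compared apart, so the overlap does not speak for the longer runs alone. The ratios for shorter A tails given here also pool all U runs. The longest tail had 14 As in wt and 12 As in rrp6Δ.

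As a share of A-tailed reads, tails of 2 or more As held 6.58% in wt (6.33 to 6.83) and 7.87% in rrp6Δ (7.77 to 7.97). Tails of 3 or more went the other way, at 2.80% (2.64 to 2.97) and 0.953% (0.917 to 0.990). In wt the long A tails sat mainly on short U runs: of its tails with 5 or more As, 69.4% were on 1 to 3 Us, against 8.49% of its single As. In rrp6Δ these shares were 53.8% and 2.14%. At 4 Us, tails of 2 or more As made up 4.86% of A-tailed reads in wt (4.52 to 5.23) and 9.88% in rrp6Δ (9.64 to 10.1). At 5 Us they made up 4.81% (4.44 to 5.21) and 7.46% (7.32 to 7.59), and at 6 Us 4.31% (3.86 to 4.81) and 6.38% (6.18 to 6.58). At 3 Us the order was the other way, with 19.7% (18.0 to 21.5) and 12.2% (11.3 to 13.2). At 1 and 2 Us the intervals of the libraries overlapped.

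**Figure D3:**
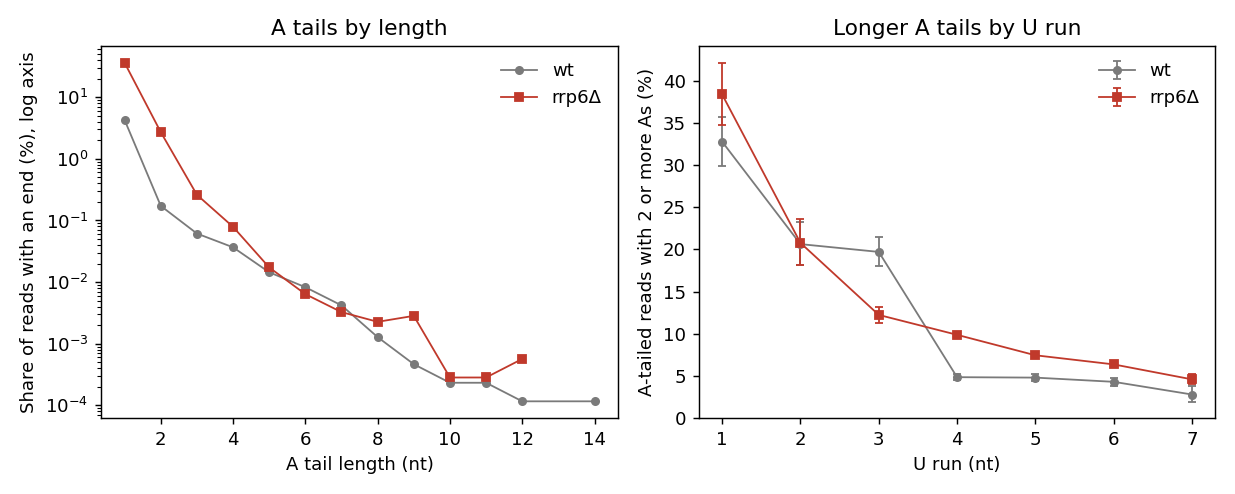
Left, A tails by length in nt as percent of reads with an end, on a log axis; right, A-tailed reads with 2 or more As as percent of A-tailed reads at each U run, with exact 95% intervals; wt grey, rrp6Δ red, 1 library each. Tails of 1 to 4 As are commoner in rrp6Δ. Over all U runs together, those of 5 or more As hold 0.0293% of reads in wt and 0.0332% in rrp6Δ.

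Mixed tails, which follow the U run with under 10 nt that are not As alone, held 1.95% of reads in wt (1.92 to 1.98) and 2.60% in rrp6Δ (2.56 to 2.63). Most of the difference lay in tails that begin with an A and go on with other letters, apart from As then Us. They held 0.204% in wt and 0.800% in rrp6Δ, or 3.93 times as much. Tails that begin with a C held 1.22% and 1.08%, and tails that begin with a G 0.303% and 0.457%. Of the 13 single mixed tails beginning with an A that were compared, 11 had 100 reads in rrp6Δ alone, so their count is not read as a result. Of the 17 that begin with a C, all with 100 reads in wt, none was higher and 1 was lower. Of the 6 that begin with a G, 3 had 100 reads in wt, and 2 of these were higher and 1 lower.

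Among the commonest mixed tails were some that ended in C, CA or G. They are shown with everything after the U run in capitals.
5 Us, then CA: tttttCA
5 Us, 1 A, then CA: tttttACA
5 Us, then C: tttttC
5 Us, then G: tttttG
The end tttttCA held 2385 reads in wt (0.278%) and 1488 in rrp6Δ (0.211%). The end tttttACA held 62 reads in wt and 854 in rrp6Δ, a ratio of 16.8. Over all U runs, a C, CA or CCA directly after the Us held 1.03% of reads in wt and 0.902% in rrp6Δ, and the same letters after at least 1 A held 0.0729% and 0.501%. Of all such ends, 6.63% had As before the C in wt (6.13 to 7.15) and 35.7% in rrp6Δ (34.8 to 36.7). These shares can be set beside the A-tailed share of ends without the suffix. At 5 Us in rrp6Δ, 41.9% of ends with the suffix had As (40.4 to 43.4), and 43.0% of plain and A-tailed ends. In wt at 5 Us the suffix went with a higher share, 6.05% (5.36 to 6.79) against 2.48%. At 4 Us in rrp6Δ these shares were 41.8% (39.6 to 44.1) and 59.4%, and at 1 U 5.77% (4.10 to 7.87) and 1.94%. The adapter's first base is a C according to the labels, and it is not known if a last C is part of U6 or of the adapter.

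A single G directly after the Us held 795 reads in wt (0.0925%) and 1703 in rrp6Δ (0.241%). The end tttttG held 0.0400% in wt and 0.120% in rrp6Δ, a ratio of 3.00. With 1 or more As before the G, such ends held 0.0249% and 0.0721%. The end with 5 Us followed by G and T had the opposite direction, with 111 reads in wt and 24 in rrp6Δ.

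Tails of As followed by Us did not follow the A-tailed ends. They held 1912 reads in wt, or 0.223% (0.213 to 0.233), and 1843 in rrp6Δ, or 0.261% (0.249 to 0.273), a ratio of 1.17. Per 100 A-tailed reads there were thus 4.89 in wt and 0.668 in rrp6Δ. A single A stood before the second U run in 52.3% of these reads in wt and 55.3% in rrp6Δ, and a single U followed in 51.5% and 58.9%. The first U run had 4 to 6 Us in 42.0% in wt and 56.9% in rrp6Δ, well under the share among A-tailed ends.

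**Figure D4:**
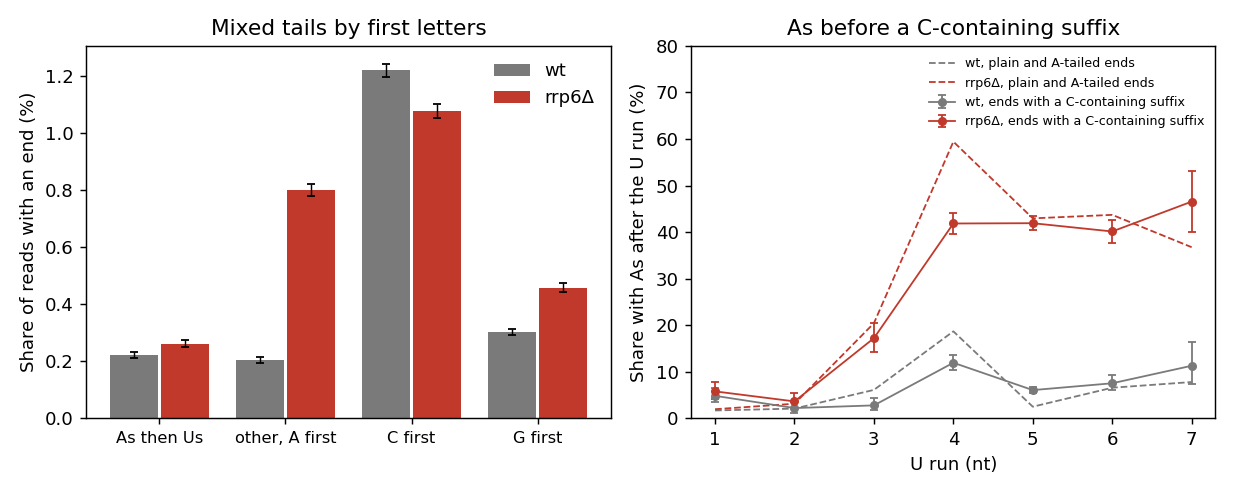
Left, mixed tails by their first letters as percent of reads with an end; right, share of ends with As after the U run among ends with a C-containing suffix (points) and among plain and A-tailed ends (dashed), by U run in nt; wt grey, rrp6Δ red, exact 95% intervals. At 5 Us the shares are 41.9% and 43.0% in rrp6Δ and 6.05% and 2.48% in wt, and tails that start with a C differ little between the libraries.

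Long tails, of 10 nt or more and not As alone, held 0.613% of reads in wt (0.597 to 0.630) and 0.713% in rrp6Δ (0.693 to 0.733). Over ends with at least 10 reads the order was the other way, at 0.206% in wt and 0.110% in rrp6Δ. Long tails were spread over 1758 distinct ends in wt and 2094 in rrp6Δ. Reads that ran on from at least 8 Us into the sequence after the gene numbered 22 in wt and 8 in rrp6Δ. Tails of at least 15 nt were searched in the genome by exact match on both strands. In wt 67.8% of these reads matched with the whole tail, and in rrp6Δ 51.9%. Another 1.06% in wt and 9.87% in rrp6Δ matched only once leading As were taken off, and 2.53% and 3.94% held the adapter. The matches were mainly to ribosomal RNA in the sense direction, with 86.8% of matched reads in wt (85.5 to 88.0) and 71.4% in rrp6Δ (69.6 to 73.2). Transfer RNA held 5.45% and 7.61%, and protein-coding genes 3.02% and 5.77%. Matches that did not lie wholly within a gene on the sense strand held 2.37% in wt (1.85 to 2.98) and 9.36% in rrp6Δ (8.25 to 10.6). They take in fragments that reach past the edge of a gene, so the shares by gene type leave such fragments out. An example is a leucine transfer RNA fragment with 1 A in front of it, with 1 read in wt and 12 in rrp6Δ.

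Of matched long tails, 1.54% had As between the U run and the match in wt (1.13 to 2.06), 45 of 2917 reads, and 16.0% in rrp6Δ (14.6 to 17.5), 401 of 2511 reads. The difference lay at 4 to 6 Us, with 1.30% in wt (0.889 to 1.83) and 18.8% in rrp6Δ (17.1 to 20.5). At 1 and 2 Us, 9 of 182 reads in wt and 6 of 183 in rrp6Δ had such As, and the intervals overlapped. An A that is also in the genome before the fragment is counted with the fragment, so these counts miss such As. Whether some counted As are misread bases of the fragment was not tested.

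A fragment of 25 nt of 18S ribosomal RNA makes this visible. It was chosen after its values were seen, because it is among the commonest and the genome has a G before it, so an A in between is not part of it. The genome holds it at 5 places, the first at chr III:2441361-2441385 on the plus strand (ASM294v3). The capital marks the A.
5 Us joined to 18S: tttttgaattagggttcgattccggagagg
5 Us and 1 A joined to 18S: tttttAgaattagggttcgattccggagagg
The first had 318 reads in wt and 67 in rrp6Δ, and the second 2 reads in wt and 31 in rrp6Δ. Over all U runs, 10 of 497 reads with this fragment had As before it in wt, or 2.01% (0.969 to 3.67), and 64 of 190 in rrp6Δ, or 33.7% (27.0 to 40.9). The fragment itself was rarer in rrp6Δ, at 0.0579% and 0.0269% of reads.

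**Figure D5:**
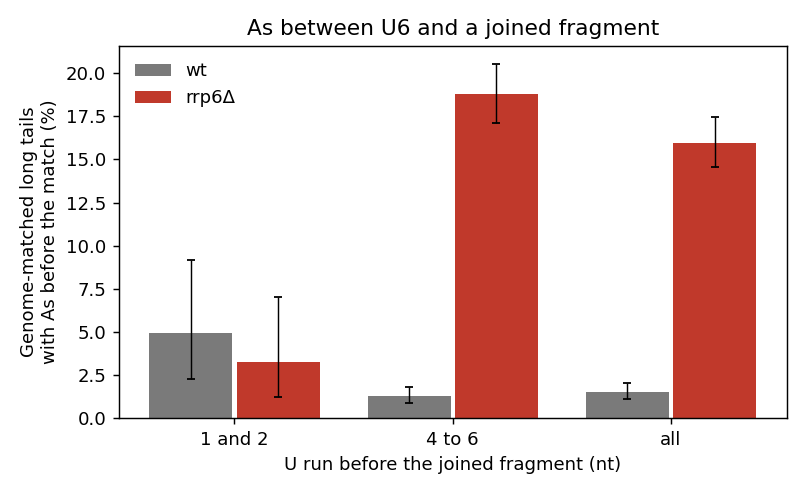
Genome-matched long tails with As between the U run and the match, as percent of matched reads, by U run; wt grey, rrp6Δ red, 1 library each, exact 95% intervals. At 4 to 6 Us the share is 1.30% in wt and 18.8% in rrp6Δ, and at 1 and 2 Us the intervals overlap.

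The same deletion was also present in RNA not treated with PNK and in cells without mpn1, again with 1 library each. Without PNK, the A-tailed share at 5 Us was 11.9% in wt (NO PNK) and 78.3% in rrp6Δ (NO PNK), and at 6 Us 13.6% and 69.3%. At 4 Us it was 41.0% and 55.8%, and at 3 Us 16.6% and 20.7%. At 1 and 2 Us it was lower without rrp6, with 6.11% and 2.35%, then 7.54% and 3.13%. The wt (NO PNK) library differs from the other 3 of these libraries in that 0.0244% of its reads held an N, where those held at most 0.000142%. That difference and the deletion cannot be told apart in RNA without PNK. In cells without mpn1, the share at 5 Us was 87.4% in mpn1Δ and 87.3% in mpn1Δrrp6Δ. At 4 Us it was 81.5% and 83.2%, and at 6 Us 79.5% and 76.3%. The size limit could not be met by a higher share at 4 to 7 Us, where mpn1Δ stood at 70.0% to 87.4%. At 1 to 3 Us, where it could, the differences were 1.37, 0.602 and 4.12 points. At 8 and 9 Us, where it also could, they were -0.975 and -3.44 points. The intervals overlapped at 2, 8 and 9 Us. Per 100 A-tailed reads, As followed by Us numbered 8.13 and 0.619 without PNK, and 0.438 and 0.410 in cells without mpn1. Matched long tails with As before the match held 4.40% and 22.4% without PNK, and 30.6% and 38.4% in cells without mpn1. These differences between settings were not tested.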

How the data were processed

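Libraries came from total RNA of cells in logarithmic growth, extracted with hot phenol and treated with PNK, per the labels' protocols. The deposited values are raw counts of reads per distinct end, not normalized by the authors. The submitters' processing notes name CASAVA 1.8.2 and cutadapt. Read filters and build: not given in the sources used here. Amplification and ligation can favour some ends, so shares describe sequenced products.

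Groups were taken from the sample titles, with 1 library per group, and no test was made. The line with no sequence was left out of shares (3.22% of reads in wt, 2.20% in rrp6Δ). Ends were sorted into plain U ends, A-tailed ends, mixed tails (under 10 nt), long tails (10 nt or more), readthrough (at least 8 Us followed by the sequence after the gene) and ends with no leading U. The members, classes and lists were chosen with earlier results of these data known. Single ends named in the text are plain ends and ends with 1 A at 1 to 9 Us, ends with at least 0.5% of reads, the 5 largest rises, falls and ratios each way, and the 5 commonest mixed and long tails. The shares under C-containing suffixes, the ends in G, the matches of long tails and the 18S example were chosen after their values were seen. Coordinates come from exact matches of the U6 primer and of tails of at least 15 nt to the RefSeq reference ASM294v3. The class counts were run on simulated ends built to fit the classes. That checks the counting, and cannot show if unclear ends, such as those in C, are sorted rightly. The alternatives were a minimum of 10 reads per end, distinct ends counted once, the line with no sequence as 0 Us, ends in C read without it, and other tail limits and denominators. Scripts ran in Python 3.11.15 with SciPy 1.17.1, NumPy 2.4.6 and, for plots, Matplotlib 3.10.9.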

Additional observations from a re-analysis of the deposited data

Results flagged for a closer look

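Several differences between strains without and with rrp6 had the opposite sign in another setting, each from single libraries whose counting intervals excluded 0, and none of these differences was tested. In cells without mpn1 the A-tailed share of reads differed by -0.681 points, against 34.6 points with mpn1. At 6 Us the A-tailed share there differed by -3.24 points, against 37.1 with mpn1, and at 7 Us by -4.28 points, against 29.0. In RNA without PNK the A-tailed share differed by -3.76 points at 1 U, against 0.269 with PNK, and by -4.41 points at 2 Us, against 1.05. The long-tail share of reads differed by -0.162 points without PNK and by 0.0996 points with it. No group had enough samples to look for a sample far from the others.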

How the results depend on the processing

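The A-tailed share of reads differed by 34.6 points between rrp6Δ and wt. It differed by 35.0 points over ends with at least 10 reads, 33.9 with the line without sequence counted as 0 Us, 34.8 with ends in C read without it, 35.99 over plain and A-tailed reads and 2.78 for tails of at least 2 As, the last under the size limit. When ends seen at least 2 times were each given the same weight, it turned to -0.137 points, and the A-tailed share to -1.39 points at 3 Us and -16.7 points at 9 Us. The intervals of these differences reached 1.07, 35.5 and 66.2 points to each side, so each of them spans 0. In that setting each U run has a single plain end, so the A-tailed share at a run only reflects how many A tail lengths were seen. That share was higher in rrp6Δ at 5 of the 6 runs from 3 to 8 Us, which is no support for a direction. The number of runs with intervals apart was 0 in place of 8. The plain mean U run differed there by -0.50 nt and tails of 2 or more As by 3.54 points. Mixed tails differed by -4.68 points and long tails by 2.29 points. The mean U run otherwise differed by -0.0287 nt, by -0.0424 nt with the line without sequence and by 0.166 nt with A-tailed ends included. Tails of 3 or more As, as a share of A-tailed reads, differed by -1.84 points. Mixed tails differed by 0.647 points, by 0.582 over ends with at least 10 reads, 0.524 without a last C and 0.590 for tails under 5 nt. Long tails differed by 0.0996 points, by 0.157 from 5 nt on and by -0.0961 over ends with at least 10 reads, so their direction rests on rare ends. At the single runs from 3 to 8 Us, the A-tailed share was higher in rrp6Δ in 18 of 18 results under the 3 settings that weigh ends by reads and can change it, by 13.4 to 40.8 points. Of single ends, 35 were higher in rrp6Δ, and 15 when 100 reads were required in wt, a setting chosen after seeing the data that compares fewer ends. No replicate could be left out. No paired analysis was possible because each strain has 1 library.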
